A study of Sus scrofa with 32 samples.

Results

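FCGR2B, CAV1, FCN2 and NOS3 are 4 genes linked to the endothelium that lines the liver sinusoids, out of 28673 features tested on the array, of which 1596 carried a gene symbol. They were chosen by results of these same arrays, with the levels of control fetuses over gestation known, so the control course is described here without a test. Probes were matched to the genes through the transcript accession in the array design. FCGR2B (NM_001033013) and FCN2 (NM_213868) had 1 probe each, and CAV1 (NM_214438) and NOS3 (NM_214295) had 2 each, of which the brighter stood for the gene. Each of these 6 probes was well above background on all 32 arrays.

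Livers came from pig fetuses of Sus scrofa, in 8 groups: 4 runts and 4 controls at each of gestational days 37, 50, 70 and 110. Both kinds of fetus were carried in a uterus that had been crowded by surgery, in gilts left with 1 uterine horn and ovary, so the controls shared the crowding. The labels describe runts and controls as pairs of littermates from different gilts, and they give no breed and no fetal weight. Whole liver RNA was hybridised, so a lower level from fewer cells of a type cannot be told apart from less RNA per cell. Levels are log2 of the processed signal relative to the 75th percentile of the same array, which is 0 on this scale, and levels of different probes are not comparable.

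The signal at the 75th percentile was 177 to 460 intensity units, 51.3% to 69.4% of spots on an array were well above background, and 0 spots were saturated. Day and array position on the slide cannot be told apart, because each day had its own position except for 1 day 50 runt on slide 9. Slides 1 to 3 and slides 4 to 9 formed 2 sets that each held both kinds of fetus.

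Liver sinusoids are lined by a thin, perforated endothelium that filters blood plasma and takes up small particles from it. FCGR2B is the inhibitory receptor for immunoglobulin G, which sinusoidal endothelial cells use to clear small immune complexes, and it is also a receptor of B cells and macrophages. CAV1 is the main coat protein of caveolae, the small pits of the endothelial surface, and NOS3 is the endothelial nitric oxide synthase, which caveolin binds and restrains. FCN2 is ficolin-2, a plasma lectin that starts the lectin pathway of complement. In humans it is made mainly by hepatocytes, so it is not an exclusive marker of endothelium.

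All 4 genes were higher at day 110 than at day 37 in runts, NOS3 on the brighter of its 2 probes while the other did not pass. None of the 4 genes was shown to differ between runts and controls at any day. FCGR2B, the scavenging receptor, was 16.9-fold higher in runts at day 110 than at day 37, and its largest step was between days 70 and 110. CAV1 and NOS3, the genes shared by endothelia of many organs, had smaller differences over the whole course and from day 70 to day 110. FCN2 had the widest groups, with SDs of 1.89 in day 110 runts, 1.95 in day 110 controls and 2.01 in day 50 runts.

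**Figure D1:**
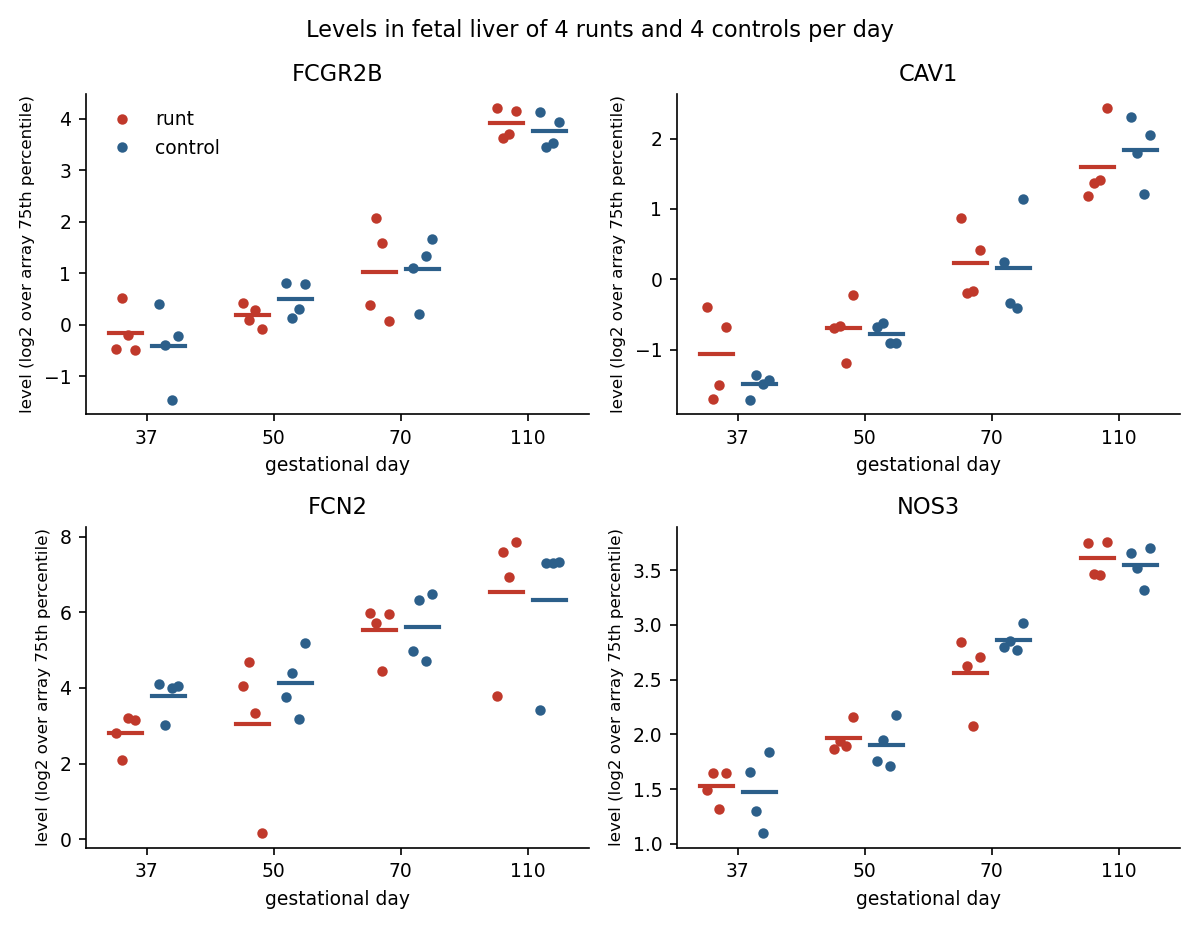
Levels of FCGR2B, CAV1, FCN2 and NOS3 (log2 over the array's 75th percentile) against gestational day. Each point is 1 fetus, runts in red on the left and controls in blue on the right of each day, and bars are means of 4. At day 110 all 8 FCGR2B values lie between 3.46 and 4.21, and 1 runt and 1 control lie far below the others in FCN2.

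FCGR2B is the receptor among the 4 genes. At day 37 FCGR2B stood at -0.46, 0.53, -0.20 and -0.49 in runts, against 0.41, -0.39, -1.45 and -0.22 in controls. At day 50 FCGR2B stood at 0.43, 0.10, 0.29 and -0.09 in runts, against 0.80, 0.14, 0.31 and 0.78 in controls. The 2 groups overlapped at both days. At day 70 FCGR2B stood at 0.39, 2.07, 1.59 and 0.09 in runts, against 1.11, 0.22, 1.33 and 1.67 in controls. At day 110 FCGR2B stood at 4.21, 3.63, 3.71 and 4.15 in runts, against 4.13, 3.46, 3.53 and 3.94 in controls. Day 70 had the widest spread in runts, from 0.09 to 2.07, whereas the day 110 fetuses lay close together and above every fetus of the earlier days.

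CAV1 builds the caveolar coat. At day 37 CAV1 stood at -0.39, -1.70, -1.50 and -0.68 in runts, against -1.71, -1.35, -1.49 and -1.43 in controls. At day 50 CAV1 stood at -0.70, -0.66, -1.19 and -0.22 in runts, against -0.67, -0.62, -0.91 and -0.90 in controls. Runts spread more widely than controls at both days, and the groups overlapped. At day 70 CAV1 stood at 0.87, -0.19, -0.17 and 0.41 in runts, against 0.25, -0.34, -0.41 and 1.15 in controls. At day 110 CAV1 stood at 1.19, 1.37, 1.41 and 2.43 in runts, against 2.31, 1.80, 1.21 and 2.06 in controls. Runt number 4 was the highest of the 8 day 110 fetuses, and the other 3 runts lay in the lower part of the range.

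NOS3 makes the nitric oxide that relaxes vessels. At day 37 NOS3 stood at 1.50, 1.65, 1.32 and 1.65 in runts, against 1.65, 1.30, 1.10 and 1.84 in controls. At day 50 NOS3 stood at 1.87, 1.94, 1.90 and 2.16 in runts, against 1.76, 1.95, 1.72 and 2.18 in controls. Every runt of day 50 was above every runt of day 37. At day 70 NOS3 stood at 2.84, 2.63, 2.08 and 2.70 in runts, against 2.80, 2.85, 2.77 and 3.02 in controls. At day 110 NOS3 stood at 3.75, 3.46, 3.45 and 3.76 in runts, against 3.66, 3.52, 3.32 and 3.71 in controls. At day 70 runts number 2, 3 and 4 lay below every control, with number 3 the lowest. Runt number 1 lay within the control range, so the groups overlapped.

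FCN2 encodes the secreted lectin. At day 37 FCN2 stood at 2.81, 2.10, 3.19 and 3.14 in runts, against 4.11, 3.03, 4.00 and 4.05 in controls. At day 50 FCN2 stood at 4.04, 4.69, 3.34 and 0.155 in runts, against 3.75, 4.39, 3.18 and 5.19 in controls. Control number 2 of day 37 lay within the runt range while the other 3 controls lay above it, and runt number 4 of day 50 was the lowest of all 32 fetuses. At day 70 FCN2 stood at 5.99, 5.72, 4.46 and 5.95 in runts, against 4.98, 6.33, 4.70 and 6.49 in controls. At day 110 FCN2 stood at 3.78, 7.61, 6.93 and 7.87 in runts, against 3.41, 7.30, 7.30 and 7.33 in controls. The day 110 runt and control that both carry number 1 were far below the other 6 fetuses of that day.

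The comparison of runts with controls asked whether growth restriction was accompanied by another level of these genes. For each gene the runt and control ranges overlapped on all 4 days, 16 of 16 pairings, and runts had the higher mean in 9. The share of all features with overlapping ranges was not counted, so the overlaps are a description and no result about these genes. With limma 0 of the 4 genes passed an adjusted p under 0.05 at day 37, 0 at day 50, 0 at day 70 and 0 at day 110, and 0 of the 16 unadjusted p-values were under 0.05. Of all features, 1.82% (day 70) to 7.38% (day 50) had an unadjusted p under 0.05. Over all features 0% passed at day 37, 0.0663% at day 50, 0% at day 70 and 0.014% at day 110, so a count of 0 among 4 genes was near the background on every day. The mean runt effect over the 4 days passed for 0 of the 4 genes, also 0 unadjusted, and for 0.248% of all features. The F-test for a runt effect that differs between days passed for 0 of the 4 genes, also 0 unadjusted, and for 0.00349% of all features.

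The precision of these differences varied between genes. For NOS3 the mean runt effect was -0.03 on the log2 scale, with a 95% interval from -0.20 to 0.13 (adjusted p = 0.968 by limma). For FCGR2B it was 0.01, from -0.38 to 0.40 (adjusted p = 0.996), and for CAV1 0.08, from -0.26 to 0.43 (adjusted p = 0.951). These 3 intervals leave out a mean difference of 2-fold in either direction. For FCN2 the mean runt effect was -0.48, from -1.40 to 0.43 (adjusted p = 0.836), which does not leave out a 2-fold lower level in runts. The day 37 and day 50 estimates of FCN2 were -0.99 and -1.07, each with an SE of 0.89. That SE, like the limma p-values above, uses 1 spread shared by all 8 groups. The FCN2 SDs at day 37 were 0.50 in runts and 0.51 in controls, against 2.01 in day 50 runts. The day 37 difference was therefore not tested against the spread of its own groups. Without runt number 4 of day 50 the day 50 estimate was -0.10 (limma adjusted p = 0.99). On the probes that stood for the genes, the lowest unadjusted p among the 16 daily comparisons was that of NOS3 at day 70, 0.074 by limma, for a difference of -0.30 (SE 0.16).

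**Figure D2:**
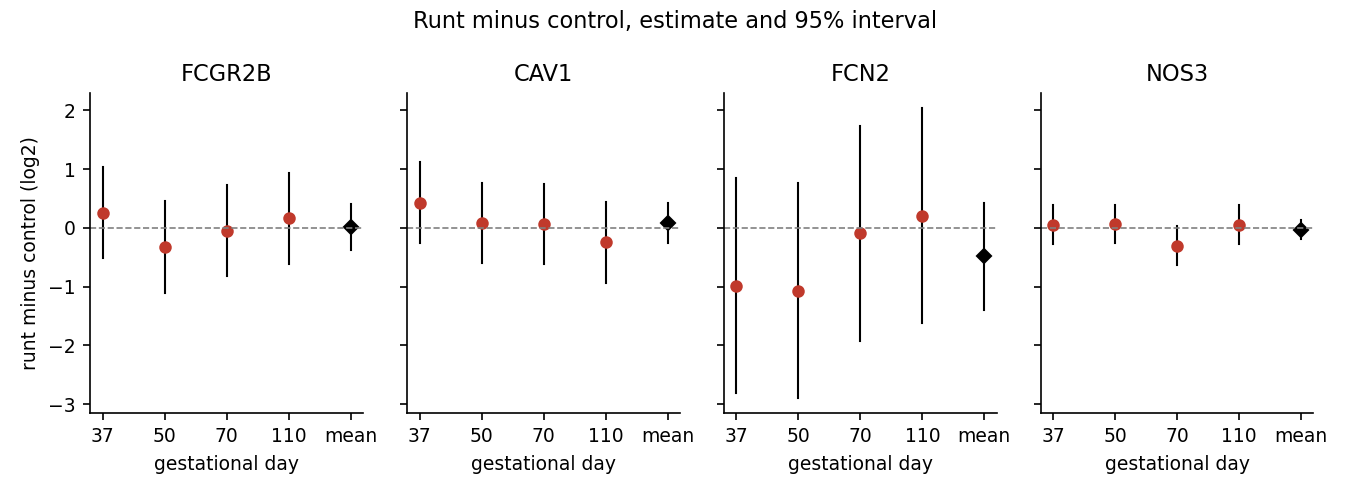
Runt minus control (log2) for FCGR2B, CAV1, FCN2 and NOS3 at each gestational day (red points) and as the mean over the 4 days (black diamonds), with 95% intervals from limma. All intervals cross 0, and those of FCN2 are the widest, for example -1.62 to 2.04 at day 110.

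The course of gestation within runts was tested between means of runt arrays, which do not enter the control means. The estimate of the spread behind its SEs and p-values came from all 32 arrays, controls included. Runts and controls share litters and array positions, so the runt course is not independent of the control course. A gene passed here at an adjusted p under 0.05 and a difference of at least 2-fold. From day 37 to day 110 all 4 genes rose, where 14.8% of all features rose by the same rule. FCGR2B reached 3.93 ± 0.30 at day 110, against -0.16 ± 0.47 at day 37 (SD, n = 4 each), a 16.9-fold rise (log2 change 4.08, SE 0.38, limma adjusted p = 8.48e-10). FCN2 reached 6.55 ± 1.89 at day 110, against 2.81 ± 0.50 at day 37, a 13.3-fold rise (log2 change 3.74, SE 0.89, limma adjusted p = 0.000991). Without both day 110 fetuses numbered 1, a choice made after their values were seen, the FCN2 change was 4.66 (adjusted p = 5.64e-06), larger than the FCGR2B change of 3.99 in the same fit. CAV1 reached 1.60 ± 0.56 at day 110, against -1.07 ± 0.63 at day 37, a 6.36-fold rise (log2 change 2.67, SE 0.33, limma adjusted p = 1.88e-07). NOS3 reached 3.61 ± 0.17 at day 110, against 1.53 ± 0.16 at day 37, a 4.22-fold rise (log2 change 2.08, SE 0.16, limma adjusted p = 2.97e-11). In each gene the 4 day 110 runts lay above the 4 day 37 runts. The share of all features set apart in this way was not counted, and 55.5% had an unadjusted limma p under 0.05 in this comparison. A larger rise was seen in 0.534% of features for FCGR2B, 0.732% for FCN2, 2.1% for CAV1 and 3.79% for NOS3, and the median change of all features was 0.04. Within slides 1 to 3 all 4 genes still passed, and within slides 4 to 9 FCN2 did not (3.24, adjusted p = 0.0517).

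The intervals between sampled days differed in which genes passed. From day 37 to day 50 0 of the 4 genes passed in limma, against 4.99% of all features that rose. The unadjusted p was under 0.05 for 1 of them, NOS3, and for 29.7% of all features. NOS3 was 0.44 higher at day 50 (SE 0.16, adjusted p = 0.0645). From day 50 to day 70, 1 gene rose, FCN2, by 2.47 (SE 0.89, adjusted p = 0.0415), against 3.19% of all features. Runt number 4 of day 50 set much of that difference: without it FCN2 was 1.50 higher and did not pass (adjusted p = 0.212). Its day 50 and day 70 ranges overlapped, and within slides 4 to 9 the difference was 1.37 (adjusted p = 0.361). NOS3 was 0.60 higher at day 70 (adjusted p = 0.00777) and CAV1 0.92 higher (adjusted p = 0.0428), both under 2-fold. FCGR2B was 0.85 higher (adjusted p = 0.0997). CAV1 passed, at 1.05 to 1.08, without runt number 4 of day 50, number 2 of day 70 or number 3 of day 70, and FCGR2B passed, at 1.17, without runt number 4 of day 70.

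From day 70 to day 110, 3 of the 4 genes rose in runts, against 4.31% of all features. FCGR2B rose 7.42-fold (log2 change 2.89, SE 0.38, adjusted p = 1.12e-06), which was most of its rise over the whole course. CAV1 rose 2.59-fold (1.37, SE 0.33, adjusted p = 0.00312), and NOS3 rose 2.06-fold (1.04, SE 0.16, adjusted p = 1.45e-05). NOS3 was close to the 2-fold limit and fell short of it without runt number 3 of day 70 (0.88), number 1 of day 110 (1.00) or number 4 of day 110 (0.99). Slides 1 to 3 held runt number 4 alone of day 70. There the differences were 3.85 for FCGR2B, 1.51 for CAV1, 1.45 for FCN2 and 0.90 for NOS3. Within slides 4 to 9 CAV1 did not pass (1.11, limma adjusted p = 0.0795), and with slide as a block NOS3 was 0.95 higher, under 2-fold. FCN2 was 1.02 higher at day 110 and did not pass (SE 0.89, adjusted p = 0.452). Without both day 110 fetuses numbered 1, left out after their low FCN2 was seen, FCN2 was 1.94 higher and passed (adjusted p = 0.0476). Leaving out the lowest day 110 runt had to raise that mean, so this pass is no evidence of a rise.

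Values of the control course are given as a description, because the genes were chosen with it known. FCGR2B was 18.1-fold higher at day 110 than at day 37 in controls, CAV1 10.1-fold, FCN2 5.81-fold and NOS3 4.23-fold. Between days 70 and 110 the differences in controls were 2.68 for FCGR2B, 1.68 for CAV1, 0.71 for FCN2 and 0.69 for NOS3 on the log2 scale. Between days 50 and 70 they were 0.58 for FCGR2B, 0.94 for CAV1, 1.50 for FCN2 and 0.96 for NOS3. FCN2 was the 1 gene whose day 110 and day 37 controls overlapped, through control number 1 of day 110. Without both day 110 fetuses numbered 1, a choice made after their values were seen, its difference in controls from day 37 to day 110 was 3.51 on the log2 scale, against 2.54 with them.

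Ordered by mean level over the 8 groups, both day 110 groups came first for each of the 4 genes. For FCGR2B the gap below them, 2.68 down to the day 70 controls, was the 1 place in the order where neighbouring groups did not overlap. For CAV1 the 1 such gap was 1.37, between the day 110 and day 70 runts. NOS3 had 2 such gaps, 0.69 between the day 110 and day 70 controls and 0.37 between the day 50 controls and the day 37 runts. In the order of FCN2 no neighbouring groups were apart, and its lowest groups were the day 50 runts (3.06 ± 2.01) and the day 37 runts (2.81 ± 0.50, SD, n = 4 each). How often neighbouring groups are apart over all features was not counted, so the number of gaps is no result about the 4 genes.

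The second probes of CAV1 and NOS3 gave different answers. The second CAV1 probe rose by 2.78 from day 37 to day 110 in runts (SE 0.35, limma adjusted p = 1.73e-07) and by 1.43 from day 70 (adjusted p = 0.00288), close to the main probe. The second NOS3 probe was much dimmer, with a mean of -2.30 over the 32 arrays. It was 0.87 higher at day 110 than at day 37 in runts (SE 0.37, limma adjusted p = 0.0559) and did not pass. It was 0.94 higher than at day 70 (adjusted p = 0.0683). In day 70 control number 4 it stood at 0.30, against -2.57 to -2.43 in the other 3 controls of that day, an array on which the main NOS3 probe was at 3.02. The size of the NOS3 rise therefore rests on the brighter probe.

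**Figure D3:**
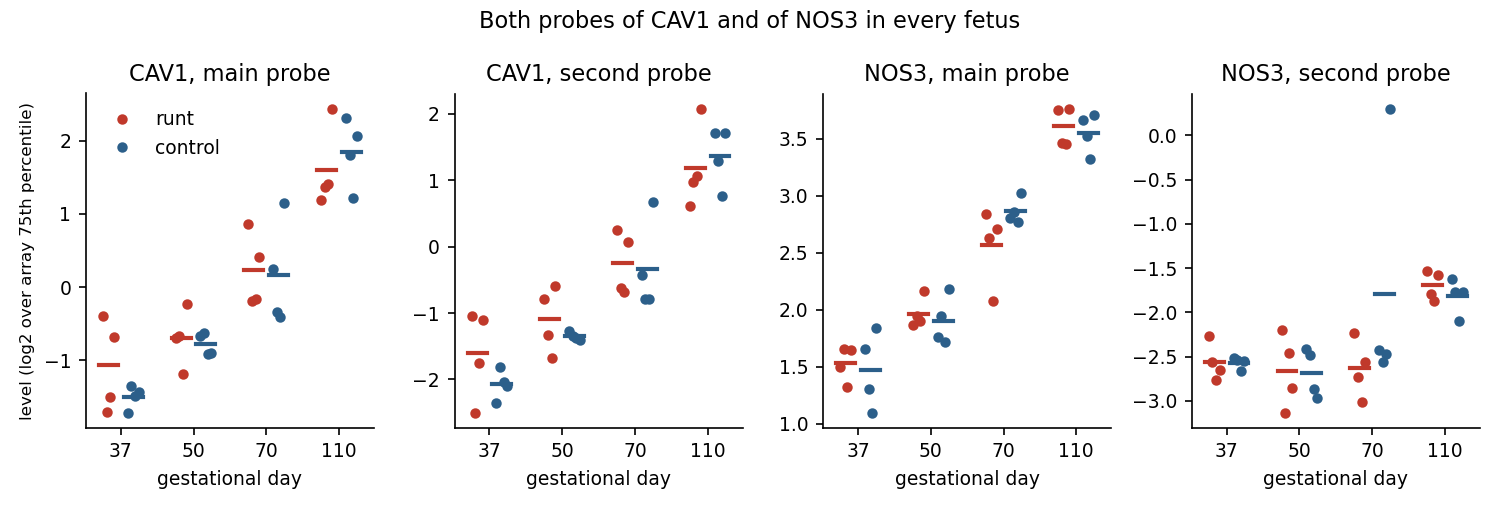
Levels of the main and the second probe of CAV1 and NOS3 (log2 over the array's 75th percentile, each panel with its own axis) against gestational day, 1 point per fetus and bars at means of 4, runts in red on the left and controls in blue on the right. Both CAV1 probes climb alike, while the second NOS3 probe is flat up to day 70, with 1 control at 0.30.

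Other endothelial genes on the array rose over the same course. Of 54 genes on a list of general endothelial markers 18 were tested, and 13 rose and 1 fell in runts from day 37 to day 110, with a median change of 1.29 (1.24 with dim genes at their lower bound). Leaving out CAV1 and NOS3, 11 of 16 rose and 1 fell, with a median of 1.24, where 14.8% of all features rose and 12.2% fell. EDN1, the vasoconstrictor endothelin-1, rose at least 2.99-fold (adjusted p = 3.98e-06), being well above background on all 4 runt arrays of day 110 and on 0 of day 37. SELP, the adhesion molecule P-selectin of platelets and endothelium, fell by 2.65 (SE 0.26, adjusted p = 1.97e-09). From day 70 to day 110, 0 of the 16 other genes rose by the rule in limma, where 4.31% of all features rose. At an unadjusted limma p under 0.05, 10 were higher, and 35.1% of all features had such a p in either direction. SELP fell by 1.32 (adjusted p = 0.000304), where 6.8% of all features fell. In that interval the median of the 16 was 0.61, and all features had a median of 0.05.

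Of 40 genes on a list for sinusoidal endothelium 12 were tested, and 5 rose and 2 fell in runts from day 37 to day 110 (median 0.74). Some of the listed genes, such as CD14 and AQP1, are also on the lists of other cell types. Without FCGR2B and FCN2 3 of 10 rose and 2 fell (median 0.01), where 14.8% of all features rose and 12.2% fell, so these counts are no result about the list. CD14, the endotoxin receptor of macrophages and sinusoidal endothelium, rose by 4.34 (SE 0.23, adjusted p = 2.78e-14). AQP1, a water channel also of red cells, fell by 4.36 (SE 0.35, adjusted p = 6.19e-11, above background on 3 of 4 runt arrays at day 110). The fatty acid receptor CD36 fell by 2.08 (SE 0.49, adjusted p = 0.000848). The scavenger receptors STAB1 and STAB2, the hyaluronan receptor LYVE1 and the lectin CLEC4G, which define sinusoidal endothelium most closely, were not among the 12 tested genes. The name given to the group was therefore not checked against them.

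**Figure D4:**
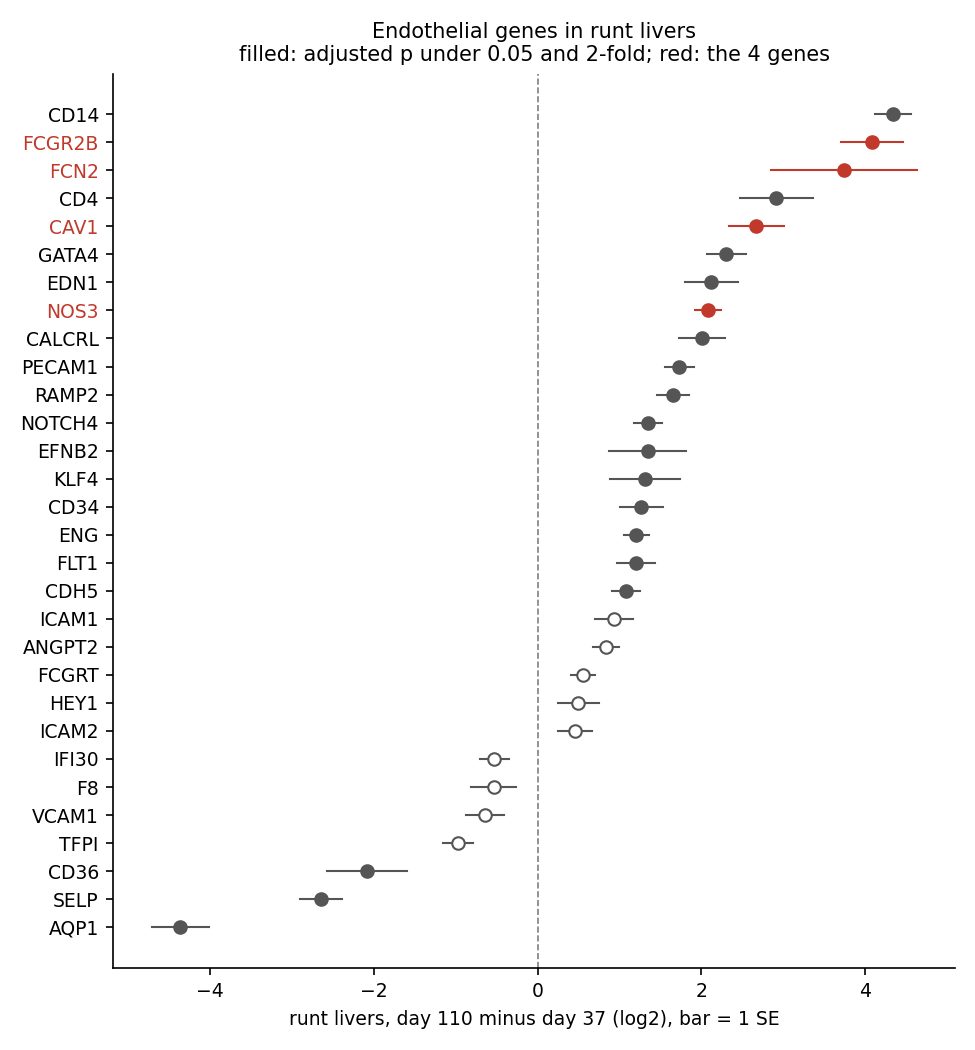
Change in runt livers from day 37 to day 110 (log2, day 110 minus day 37, bars 1 SE) of the tested genes on the general and the sinusoidal endothelial lists, sorted by size. FCGR2B, FCN2, CAV1 and NOS3 are in red, and filled points passed an adjusted p under 0.05 and 2-fold. SELP, CD36 and AQP1 fell, at -2.65, -2.08 and -4.36.

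The pathways around each gene were followed in the same comparison, in which 14.8% of all features rose and 12.2% fell. Of 17 genes on a caveolae list 5 were tested, 2 rose and 3 fell (median -1.51). CAV2, the partner of CAV1 in the caveolar coat, rose by 2.73 (SE 0.21, adjusted p = 3.58e-11). CAV3, the muscle caveolin, fell by 2.95 (SE 0.65, adjusted p = 0.00045, above background on 2 of 4 runt arrays at day 110). CD36 and LIPE, hormone-sensitive lipase (-1.51, SE 0.15, adjusted p = 3.48e-09), which fell too, are lipid-handling genes and no coat proteins. The 2 caveolins of endothelium therefore rose while the muscle caveolin fell.

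Of 34 genes on a nitric oxide list 13 were tested, 5 rose and 2 fell (median 0.55). SLC7A2, an arginine transporter, rose by 2.47 (SE 0.43, adjusted p = 2.55e-05), and VEGFA, the vascular endothelial growth factor, rose by 2.32 (SE 0.28, adjusted p = 9.42e-08). EDN1, given above, was the other large rise. SLC7A1, another arginine transporter, fell by 1.27 (SE 0.16, adjusted p = 1.59e-07), and ARG1, the arginase of the urea cycle, fell by 1.39 (SE 0.16, adjusted p = 3.68e-08). The inducible synthase NOS2 was 0.55 higher and did not pass. Of 31 genes on a list of angiogenic factors 9 were tested, 4 rose and 0 fell (median 0.83), among them VEGFA, the TGF-beta coreceptor ENG (1.21, SE 0.15) and the VEGF receptor FLT1 (1.20, SE 0.23).

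Of 16 genes on a list of the lectin pathway 9 were tested, and 6 rose and 0 fell (median 2.12). FCN2 itself was the largest, followed by the complement component C4A (2.45, SE 0.40, adjusted p = 1.09e-05) and the mannose-binding lectin MBL1 (2.42, SE 0.30, adjusted p = 1.65e-07). FCN1, the ficolin of granulocytes and monocytes, was -0.82 and did not pass. Of 18 genes on a list of Fc receptors 7 were tested, 3 passed as higher, FCGR2B, FCGR3A and PIGR, and 0 as lower (median 0.59, or 0.55 with the dim gene at its bound). FCGR3A, the activating receptor of macrophages and natural killer cells, rose by 1.66 (SE 0.22, adjusted p = 5.32e-07). PIGR, the transporter of polymeric immunoglobulins, was well above background on 1 runt array of day 110 and 0 of day 37, so no fold is given (adjusted p = 0.00509). FCGRT, the neonatal Fc receptor, was 0.55 higher and did not pass.

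Between runts and controls, 0 genes of the endothelial, sinusoidal, caveolae, nitric oxide, angiogenic, lectin and Fc receptor lists passed the mean runt effect in limma. The unadjusted p was under 0.05 for 4 of the 9 lectin pathway genes and 2 of the 12 sinusoidal genes, all lower in runts, for 0 of the others and for 9.09% of all features. At day 50 0 of the 9 lectin pathway genes passed in limma, all 9 were below 0 (median -1.44), and 5 had an unadjusted p under 0.05, against 7.38% of all features. In the hepatocyte list 1 of 11 tested genes passed the mean runt effect over the 4 days, against 0.248% of all features. That gene, ALB, serum albumin, was lower in runts by 1.53 (SE 0.29, limma adjusted p = 0.0223). The list as a whole did not go that way, with 6 of 11 genes above 0 and a median of 0.08.

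Markers of several other cell types changed from day 37 to day 110 in runts, some upward and some downward. In that comparison 14.8% of all features rose and 12.2% fell. Of 17 tested markers of Kupffer cells and monocytes 10 rose and 1 fell (median 1.32), and their mean level was 1.77 to 2.27 in day 110 runts and 0.08 to 0.56 in day 37 runts. CD14, the antigen-presenting molecules SLA-DRA (4.26) and SLA-DQA1 (4.24) rose most, and CD86, a costimulatory molecule, fell by 2.44. Of 6 tested B cell markers 3 rose and 0 fell (median 1.17, or 0.80 with dim genes at their bound), with mean levels of -2.45 to -1.69 in day 110 runts and -3.70 to -3.22 in day 37 runts. VPREB1, a part of the pre-B cell receptor, rose at least 16.5-fold, CD79A at least 2.85-fold and BLNK at least 2.57-fold, each above background on 0 of 4 runt arrays at day 37. FCGR2B is known in both of these cell types, and their part in its rise was not tested.

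Of 11 tested hepatocyte markers 5 rose and 0 fell (median 0.84), with mean levels of 6.72 to 7.27 in day 110 runts and 4.97 to 5.998 in day 37 runts. CYP2E1 (6.72, SE 1.89), a cytochrome P450, and ALB (3.42, SE 0.59) rose most, and CYP3A29, another P450, rose at least 4.56-fold. Of 8 stellate cell and fibroblast markers 2 rose, RGS5 (3.65, above background on 1 of 4 runt arrays at day 37) and IGFBP3 (1.69), and TIMP1 fell by 1.05 (median 0.56). With 14.8% of all features rising and 12.2% falling, these counts are no result about that list. The mean level of the 8 markers was 1.00 to 1.60 in day 110 runts and 0.07 to 0.77 in day 37 runts.

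All 5 tested erythroid markers fell (median -4.36), led by the embryonic globin HBE1 (-7.36), the transferrin receptor TFRC (-4.82, above background on 2 of 4 runt arrays at day 110) and AQP1, and their mean level was -2.49 to -1.43 in day 110 runts and 2.65 to 3.33 in day 37 runts. Of 6 tested markers of megakaryocytes and platelets 5 fell and 1 rose (median -2.46), with mean levels of 0.48 to 0.60 in day 110 runts and 1.96 to 2.42 in day 37 runts. ITGB3 (-3.34), SELP (-2.65) and PPBP (-2.63) fell most and TBXAS1 rose (2.41, above background on 2 of 4 runt arrays at day 37). Of 6 granulocyte markers 0 rose and 0 fell in limma, also 0 unadjusted (median -0.51), with mean levels of -0.33 to 2.00 in day 110 runts and -0.16 to 2.03 in day 37 runts. The part of these changes in the rise of the 4 genes, all measured relative to total signal, was not tested.

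The genes whose levels followed each of the 4 most closely are given as a description, by Pearson's r over the 32 arrays, among 1577 candidates with a symbol. The arrays share their day and slide, so the course of gestation alone raises r. For FCGR2B they were the coagulation factor F7 (0.94), the vasoactive intestinal peptide receptor VIPR1 (0.92) and CD14 (0.92). For deviations from the group means r was 0.37, -0.11 and -0.02 in that order, so VIPR1 and CD14 shared the course and not the differences between fetuses. For CAV1 they were the growth factor TGFB3 (0.97), the matrix protein MGP (0.96) and CAV2 (0.95), and these also moved with it inside groups, with r of 0.76, 0.68 and 0.54 for the deviations. For NOS3 they were the cytokine TNFSF13 (0.97), SLA-DQB1 (0.96) and SLA-DRA (0.96), with r of 0.64, 0.53 and 0.46 for the deviations.

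Among the 4 genes themselves CAV1 and NOS3 were the closest pair, with r of 0.93 over the arrays and 0.41 for the deviations. FCGR2B had an r of 0.90 with NOS3 and 0.86 with CAV1, but 0.16 and -0.15 for the deviations. FCN2 had the lowest values, 0.61 to 0.70 with the other genes over the arrays, and -0.17 to 0.04 for the deviations.

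FCN2 was followed most closely by the slow troponin T gene TNNT1 (0.79), the glutathione transferase GSTA1 (0.79) and the antiviral gene RSAD2 (0.76), with r of 0.62, 0.61 and 0.39 for the deviations. At day 110 GSTA1 stood at -0.25, 5.07, 5.36 and 5.62 in runts, against 3.88, 5.78, 6.98 and 6.41 in controls. At day 110 TNNT1 stood at 2.48, 3.53, 2.89 and 3.19 in runts, against 2.22, 3.18, 3.02 and 2.83 in controls. At day 110 RSAD2 stood at -4.51, -2.35, -3.63 and -4.06 in runts, against -4.71, -4.30, -3.44 and -3.06 in controls. In all 3 genes the fetus numbered 1 was the lowest of its group among both runts and controls, as in FCN2. The 3 genes were picked by their r with FCN2 over arrays that include these fetuses, so the shared low values are no separate result. RSAD2 was below background on all arrays of days 37 and 50.

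**Figure D5:**
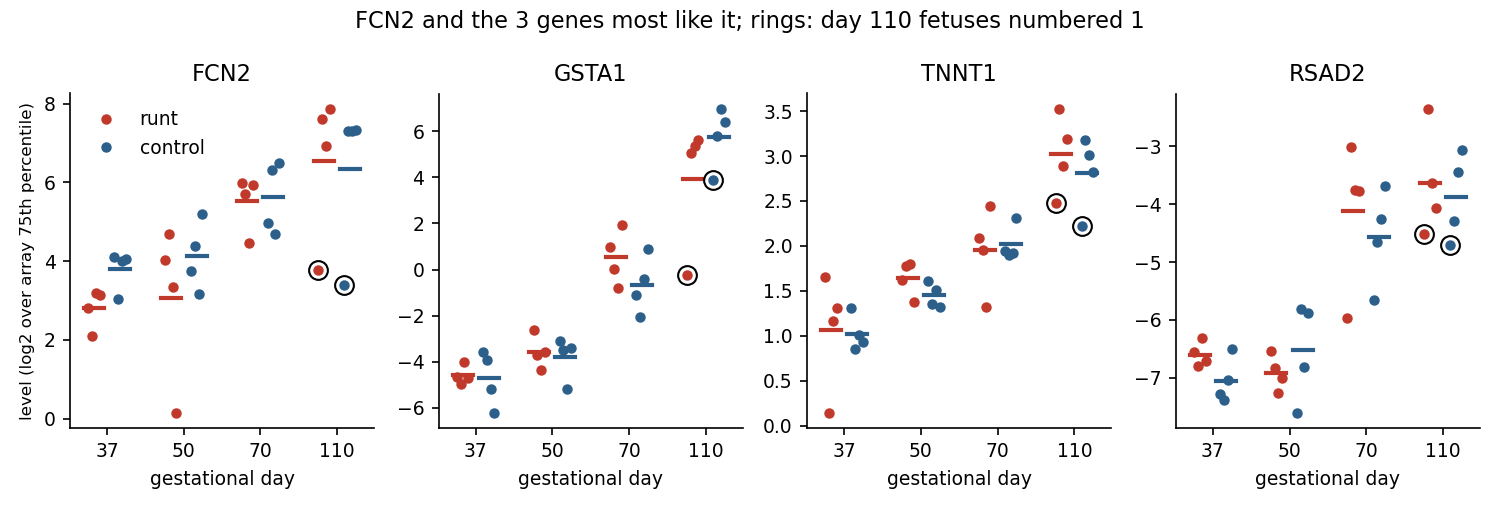
Levels (log2 over the array's 75th percentile, each panel with its own axis) of FCN2, GSTA1, TNNT1 and RSAD2 against gestational day, 1 point per fetus and bars at means of 4, runts in red on the left and controls in blue on the right. Rings mark the day 110 runt and control numbered 1, which are the lowest of their groups in each panel and stand far apart from them in FCN2, at 3.78 and 3.41. GSTA1, TNNT1 and RSAD2 were picked by their r with FCN2, these fetuses included.

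The low FCN2 of those fetuses was set beside the 20 tested genes of the hepatocyte and lectin pathway lists at day 110, a comparison chosen after the values were seen. In 4 of the 20 genes the fetus numbered 1 lay below the other 3 of its group in both runts and controls, and in 16 it did not. The 4 were FCN2, which prompted the comparison, C2, C4A and MASP2. The share of all features with this pattern was not computed, so the count is no result about these lists. C2 stood at 1.41 in the runt numbered 1, against 1.74 to 2.51 in the other 3, and at 1.93 in the control numbered 1, against 1.99 to 2.80. MASP2, the protease that ficolins activate, stood at -1.0 in that runt, against -0.81 to -0.11 in the other 3, and at -1.19 in that control, against -0.91 to -0.39. C4A stood at -1.33 in that runt, against -0.67 to 0.01 in the other 3, and at -0.93 in that control, against -0.46 to -0.09. These gaps were under 1 on the log2 scale, while those of FCN2 were over 3. Of the 11 hepatocyte genes 1, the iron carrier TF, was below the other 3 fetuses in that runt, and 0 were in that control.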

How the data were processed

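Liver RNA of 32 fetuses was hybridised to single-colour Agilent arrays read with Feature Extraction 10.7.3.1, per the file headers. The deposited processed signal is a background-subtracted fluorescence intensity. The authors also deposited log2 values made with Partek, per the submitters' processing notes, which give no version. Their column medians were 5.148 to 5.153, and they served as an alternative.

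Control spots and outlier spots were left out, and log2 of the processed signal minus the array's 75th percentile was used. A probe was tested when well above background on at least 3 of 4 arrays of 1 group. The brightest probe stood for a gene. One mean per group was fitted with limma 3.58.1 (R 4.3.3, 24 residual degrees of freedom), two-sided, with Benjamini-Hochberg adjustment over 28673 features. "At least" folds use the background limit of each array. With 4 arrays in a group, precision is limited by their number.

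The 4 genes, the gene lists and the tests were chosen with earlier results of these data known. Named list genes were the 3 largest rises and 3 largest falls that passed in runts from day 37 to day 110, and any that passed between runts and controls. Nothing says that replicate numbers mark litters: 14 of 16 same-numbered pairs had deviations correlated over 0.1 (range -0.053 to 0.454), so no block entered the model. Alternatives were normexp with quantile normalization (on median signals, as no mean signal column was given), quantile normalization, the authors' values, other filters on dim probes, the mean of all probes, slide or replicate block, slide sets and leaving out fetuses. The files name no genome build, and no genome position is given.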

Additional observations from a re-analysis of the deposited data

Results flagged for a closer look

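FCN2 in day 110 control number 1 stood at 3.41, while the other 3 controls lay between 7.30 and 7.33, a gap of 0.991 of the group's range, above Dixon's critical value for 4 samples. FCN2 in day 37 control number 2 stood at 3.03, while the other 3 controls lay between 4.00 and 4.11, a gap of 0.901 of the range. These were 2 of 32 groups examined, and chance alone marks about 1 group in 20.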

How the results depend on the processing

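The count of 4 genes that rose in runts from day 37 to day 110 was 4 in every fit that left out 1 fetus. Slides 1 to 3 held runt number 4 alone of day 50 and of day 70, so they give no count for the 2 later intervals. From day 70 to day 110 the count was 3. It was 2 within slides 4 to 9, with slide as a block and with the mean of all probes, and 2 to 3 when 1 fetus was left out. From day 50 to day 70 the count was 1. It was 0 with normexp, with quantile normalization, with the authors' values, with no filter on dim probes and within slides 4 to 9, and 0 to 2 when 1 fetus was left out. The cause was not tested. Slides 1 to 3 also held control number 4 alone of day 37 and of day 110, so they give no count between runts and controls. Under every other alternative run the count between runts and controls was 0, at each day, for the mean effect and for the difference between days. With the replicate block FCN2 had a mean runt effect of -0.48 (limma adjusted p = 0.595) and NOS3 of -0.03 (adjusted p = 0.903), and FCN2 was -0.99 at day 37 (adjusted p = 1). That block cannot be fitted between days, so the numbers 1 to 4 were used as a replicate block over all days, a choice made after seeing the data, and the counts were again 0, 1, 3 and 4. Of 16 same-numbered pairs 11 correlated best with their own number, a hint from the data and not from the design. Of 760 tested values with a direction 58 had the other sign under an alternative, none of them past a threshold in either fit. In controls 6 differences moved by more than the spread between fetuses and 290 did not, and 3 of the 6 were for NOS3 with the mean of its 2 probes, where the difference from day 37 to day 110 was 1.42. Dim probes limit EDN1, CYP3A29, VPREB1, CD79A and BLNK to lower bounds and leave PIGR without a fold, and RGS5, TFRC, AQP1, CAV3 and TBXAS1 were below background on some arrays of 1 group.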
